A study of Mus musculus with 12 samples.

Results

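Of the 6 RNA-seq libraries made from parts of mouse heart organoids (HOs), 2 carried transcripts of Myod1, the gene of the muscle-determination factor MyoD, and 4 carried none. They were chosen by their Myod1 count, with 100 fragments or more on one side and fewer on the other. The atrium-like part of replicate 2 had 643 Myod1 fragments and the ventricle-like part of replicate 2 had 1169, and the other 4 HO libraries, atrium-like and ventricle-like parts of replicates 1 and 3, had 0 each. These 2 of 6 HO libraries, of 12 in the whole series, are called Myod1-positive below, and the other 4 Myod1-negative. The remaining 6 libraries came from atria and ventricles of the mouse embryonic heart at E11.5 (E11.5H), with 3 replicates of each chamber. The HOs were grown from mouse embryonic stem cells, as embryoid bodies on a laminin-entactin gel with FGF4, and from day 9 with BMP4, BIO and LIF. At 13 days of culture they were cut into an atrium-like and a ventricle-like part. The labels give the strain of all 12 samples as C57BL/6 and name no deletion or transgene. The methods name several wild-type stem cell lines, of C57BL/6 and of an F1 hybrid of C57BL/6 with JF1, and which line gave which HO library is not given in the sources used here.

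MyoD belongs to the myogenic regulatory factors, a family of basic helix-loop-helix proteins that drive the skeletal muscle program. They bind short sequences called E-boxes as dimers with E proteins, and with the MEF2 factors they switch on genes for myoblast fusion, the neuromuscular synapse and the sarcomere. The heart builds its sarcomeres without them, and skeletal muscle of the trunk and head comes from somites and from pharyngeal mesoderm, the latter sharing progenitors with the heart.

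Both Myod1-positive libraries carry the replicate number 2. The methods describe 13-day HOs in biological triplicate, each cut into its parts, so if a number marks 1 HO the comparison is 1 HO against 2 HOs. The labels do not say whether it does, so Myod1, the HO and the cell line cannot be told apart. Because a measured gene chose the sides, no difference between them was tested, and every value in that contrast is a description of these libraries. Values are given as CPM, the fragments of a gene as a share of its library, after TMM scaling over all 12 libraries, unless named as FPKM, which also divides by transcript length. A gene was called higher when its lowest value in the 2 Myod1-positive libraries was at least 2 times its highest value in the 4 Myod1-negative libraries, and lower in the reverse case. The ratio between those nearest libraries is called the gap. In bulk RNA, a change in the number of cells of a type and a change in RNA per cell cannot be told apart.

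The libraries held 23971258 to 30540993 fragments in genes. A count of 0 allowed at most 0.148 CPM in a Myod1-negative library, for counting error alone. Of 16516 genes with a count of at least 10 in at least 2 HO libraries, 484 were higher in both Myod1-positive libraries (2.93%) and 140 were lower (0.848%). Without any minimum gap, 2350 genes did not overlap in the upward direction (14.2%) and 1701 in the downward direction (10.3%). Leaving out ventricle-like replicate 1 alone brought the higher genes to 1344 and the lower genes to 728, and leaving out atrium-like replicate 2 brought them to 1378 and 937. The filter and scaling were kept there, so leaving out a library can only keep or raise these counts. When the libraries were scaled to equal cardiomyocyte expression, 667 genes were higher and 70 lower. Without ventricle-like replicate 2 the lower genes numbered 327.

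All myogenic regulatory factors were found in both Myod1-positive libraries, with Myog and Myod1 at the highest levels. Myod1 (chromosome 7 from 46376474 to 46379092 of GRCm38) was at 21.2 CPM in atrium-like replicate 2 and 38.1 in ventricle-like replicate 2. Myog, which encodes myogenin, the factor of terminal differentiation, was at 48.0 and 47.2 CPM in the same libraries. In the Myod1-negative libraries Myog had 2 fragments in atrium-like replicate 3 and 0 in the other 3. Myf5, which acts early in myoblast commitment, was at 0.725 and 0.912 CPM against 0 in all 4, at least 4.91-fold higher, which fell short of 2-fold under the cardiomyocyte scaling. Myf6, which encodes MRF4 of late differentiation, was at 0.659 and 0.195 CPM against 0 in all 4, and did not pass the filter on low counts. Per transcript length, Myog had 29.0 and 30.0 FPKM and Myod1 10.2 and 19.3 FPKM. Myog was therefore nearly equal in the parts, whereas Myod1 was higher in the ventricle-like part.

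**Figure D1:**
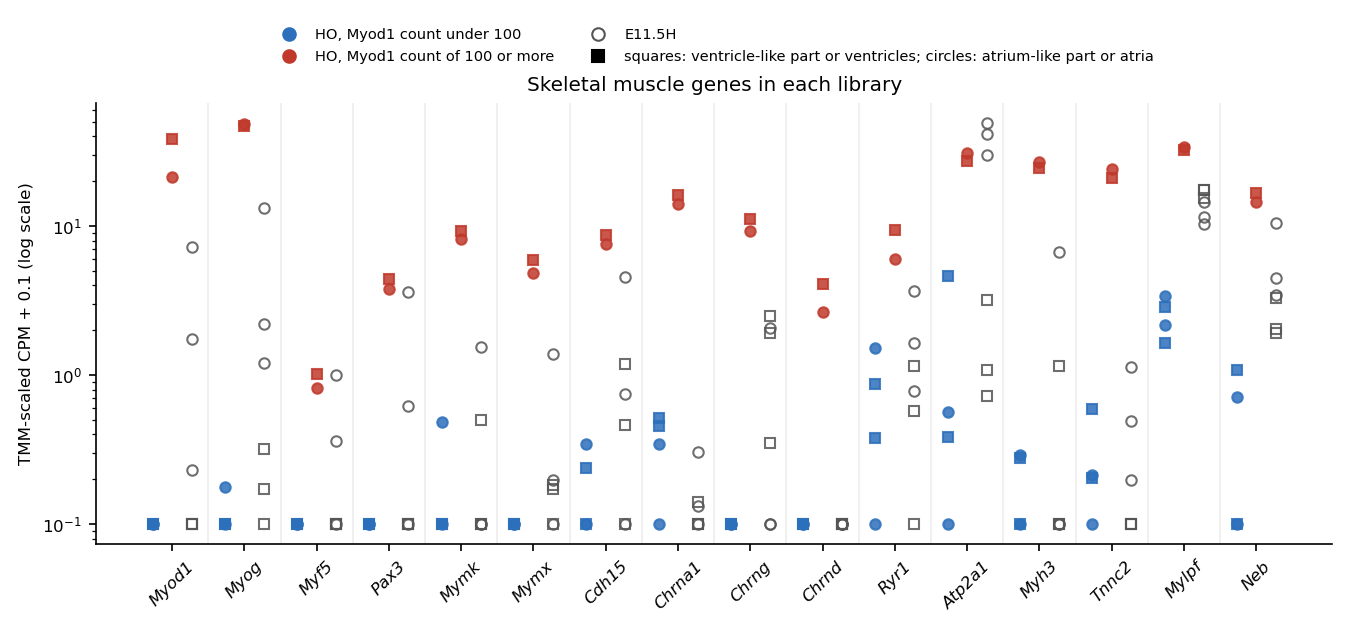
TMM-scaled CPM plus 0.1, on a log axis, of 16 genes picked from those called higher, in each library. Pax3 is from the list of progenitor factors and the others are from the skeletal muscle lists. Each point is 1 library, filled for HOs (red, Myod1 count of 100 or more; blue, under 100) and open for E11.5H. Both red points lie above all blue points for each gene shown, which the choice of genes required, for example at 48.0 and 47.2 CPM for Myog. Of 66 skeletal muscle genes that passed the filter, with Myod1 left out, 25 were higher. Atp2a1 reaches 30.1 to 48.8 CPM in the atria of E11.5H.

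Promoter sequences of genes called higher are shown for 3 genes of the program, a regulatory factor and 2 subunits of the same receptor, with each E-box (CANNTG) in capitals. They are the RefSeq sequences of GRCm38.p6 from 250 bases before to 50 bases after the start, read on the strand of the gene. Myog lies at chr1:134289754-134290053 on the plus strand, Chrna1 at chr2:73580289-73580588 on the minus strand and Chrng at chr1:87205561-87205860 on the plus strand.
Myog: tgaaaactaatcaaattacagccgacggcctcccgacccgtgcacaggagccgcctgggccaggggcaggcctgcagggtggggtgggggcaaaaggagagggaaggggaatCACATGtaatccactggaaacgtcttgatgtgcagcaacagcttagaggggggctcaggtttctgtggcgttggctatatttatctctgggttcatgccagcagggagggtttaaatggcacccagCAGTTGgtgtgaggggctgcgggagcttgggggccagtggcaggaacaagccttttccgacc
Chrna1: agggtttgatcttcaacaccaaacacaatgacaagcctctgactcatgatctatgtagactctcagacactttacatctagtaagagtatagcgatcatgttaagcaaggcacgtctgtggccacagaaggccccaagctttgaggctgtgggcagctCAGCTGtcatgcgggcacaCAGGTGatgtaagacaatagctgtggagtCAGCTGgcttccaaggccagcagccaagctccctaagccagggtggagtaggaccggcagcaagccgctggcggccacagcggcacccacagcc
Chrng: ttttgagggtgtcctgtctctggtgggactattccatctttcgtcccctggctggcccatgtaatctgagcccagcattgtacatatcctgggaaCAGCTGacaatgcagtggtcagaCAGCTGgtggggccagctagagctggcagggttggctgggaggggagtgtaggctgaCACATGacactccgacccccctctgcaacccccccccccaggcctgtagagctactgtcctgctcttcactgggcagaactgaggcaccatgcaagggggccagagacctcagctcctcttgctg
CANNTG and the word CAGCTG, which is one of its forms, read the same on both strands. Myog held 2 CANNTG and no CAGCTG, and Chrna1 and Chrng held 3 CANNTG each, of which 2 were CAGCTG. Of the 26 higher genes of the skeletal muscle lists, 16 had a promoter in the table, and 9 of these (56.2%) held CAGCTG. Chrna1 and Chrng were the only ones of the 16 with 2 CAGCTG, so 2 of the 3 shown are the richest in that word. The word occurred in 16.1% of all 27025 promoters, in 15.8% of those of genes that passed the filter and in 22.8% of the 351 found for all higher genes. CANNTG itself was in 14 of the 16 (87.5%), all but Myf5 and Ryr1, and in 72.1% of all promoters. It was in 64.8% of those of genes that passed the filter. For all higher genes the share was 67.5%, and for the 87 promoters found for lower genes it was 85.1%, near that of the 16. A match is only a run of letters, and binding was not measured. Of the 26, promoters of Myod1, Mymk, Mymx, Megf10, Chrnd, Cacng1, Stac3, Tnnt3, Neb and Lmod3 were not matched. Nor was that of Pax3, which belongs to the list of progenitor factors.

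The 6 skeletal muscle lists joined here are regulatory factors, myoblast fusion, neuromuscular junction, excitation-contraction coupling, skeletal sarcomere and muscle metabolism. Myod1 was left out of the counts, and the lists of progenitor factors, partners of MyoD and shared sarcomere genes are not part of them. Of 76 genes 66 passed the filter, and of these 25 were higher (37.9%) and 1 was lower, beside 2.93% and 0.848% of all genes. A gene seen only in the Myod1-positive libraries passes the filter through them, so the share of those that passed is a description. The median log2 difference between the Myod1-positive library and each Myod1-negative library of the same part was 1.80 and 1.39 in atrium-like parts and 0.80 and 1.02 in ventricle-like parts, against replicates 1 and 3 respectively. The medians over all genes were 0.08, 0.02, -0.02 and -0.03. With each library left out in turn, 25 to 32 of these genes were higher. The filter and scaling were kept, so leaving out a library could only keep or raise the count.

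Among muscle progenitor factors, 5 of 14 that passed the filter were higher and 1 was lower (35.7% and 7.14%, beside 2.93% and 0.848% of all genes). Pax3, a paired-box factor of the dermomyotome and of migrating limb muscle precursors, was at 3.69 and 4.30 CPM and at 0 in every Myod1-negative library, at least 25-fold higher. Its relative Pax7, which marks satellite cells, was at 0 in both Myod1-positive libraries and at 0.96 CPM in atrium-like replicate 3. Tbx1, a factor of pharyngeal mesoderm, was at 2.60 and 3.65 CPM against 0 to 0.987. Meox1 and Meox2, homeobox factors of the somite, had gaps of 2.53 and 2.98. Lbx1, needed for limb muscle precursors to migrate, was at 0.198 and 2.64 CPM and did not pass the filter. Met, the receptor for HGF on those precursors and on epithelia, was lower, at 7.15 and 6.68 CPM against 34.9 to 65.5, a gap of 4.87. Under the cardiomyocyte scaling Meox1, Meox2 and Met did not keep a 2-fold gap.

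Among partners and inhibitors of MyoD, 1 of 13 was higher (7.69%, beside 2.93% of all genes). It was Sox8, at 6.06 and 8.80 CPM against 0.0984 to 2.92. The E proteins Tcf3 and Tcf12, which pair with MyoD, did not overlap but stayed under the 2-fold rule. Tcf3 was at 121 and 99.9 CPM against 57.4 to 93.9, and Tcf12 at 57.7 and 60.9 against 35.2 to 49.7. The Id proteins, which hold E proteins away from DNA, overlapped in all 4 genes. Id3 was at 381 and 502 CPM against 72.9 to 764. Mef2d was lower without overlap, at 68.4 and 63.0 CPM against 75.1 to 113.

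Genes of myoblast fusion were at 0 or low in the Myod1-negative libraries for 4 of 12 that passed the filter, and these 4 were higher. Their share was 33.3%, beside 2.93% of all genes. Mymk, which encodes the membrane fusogen myomaker, was at 8.04 and 9.15 CPM and at 0, 0.384, 0 and 0 in the others. Mymx, which encodes its partner myomixer, was at 4.71 and 5.83 CPM against 0 in all 4, at least 31.9-fold higher. Cdh15, M-cadherin of the myoblast surface, was at 7.51 and 8.63 CPM against at most 0.246, and Megf10, a receptor of satellite cells, at 9.46 and 14.5 CPM against at most 2.68. Itga7, the laminin receptor of muscle, did not overlap, with a gap of 1.14, because ventricle-like replicate 1 reached 34.1 CPM. Mstn, the growth inhibitor myostatin, was at 1.94 and 1.5 CPM, below the 3.55 CPM of ventricle-like replicate 1.

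The muscle acetylcholine receptor showed the subunits of its fetal form. Chrna1, the subunit that binds acetylcholine, was at 13.9 and 16 CPM against 0 to 0.417, a gap of 33.2. Chrng, the gamma subunit of the fetal receptor, was at 9.23 and 11.1 CPM and Chrnd, the delta subunit, at 2.54 and 3.97 CPM. Both were at 0 in all 4 Myod1-negative libraries, at least 62.5-fold and 17.2-fold higher. Chrne, whose epsilon subunit replaces gamma in mature muscle, had 1 and 4 fragments. Per length the order was the same in the 2 libraries: Chrng at 4.30 and 5.45 FPKM, Chrna1 at 2.87 and 3.47, Chrnb1 at 2.03 and 2.21, and Chrnd at 0.766 and 1.26. Chrnb1, the beta subunit, was also found in the Myod1-negative libraries, at 2.19 to 8.68 CPM, and overlapped. Musk, the kinase that gathers the receptors, was at 1.81 and 2.80 CPM against at most 0.661. Rapsn, the scaffold beneath them, stayed just under the 2-fold rule with a gap of 1.99. In this list 4 of 10 genes that passed the filter were higher (40%, beside 2.93% of all genes).

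Of 14 skeletal excitation-contraction genes that passed the filter, 5 were higher and 1 was lower (35.7% and 7.14%, beside 2.93% and 0.848% of all genes). Cacng1, the gamma subunit of the skeletal calcium channel, was at 5.47 and 6.48 CPM against 0, 0, 0 and 1.02. Ryr1, the skeletal calcium release channel, was at 5.87 and 9.35 CPM against 0 to 1.42, a gap of 4.13. Ryr2, its cardiac relative, was at 28.2 and 32.9 CPM and overlapped with 9.99 to 74.0. Atp2a1, the calcium pump of fast fibers, was at 30.7 and 27.2 CPM against 0 to 4.52, a gap of 6.02. Cacna1s, the pore of the channel that senses voltage, was at 5.5 CPM in the atrium-like part but 0.912 in the ventricle-like part. Stac3, its adaptor, was at 0.659 and 1.21 CPM against at most 0.192. Neither of these kept a 2-fold gap under the cardiomyocyte scaling. Scn4a, the sodium channel of mature fibers, had 1 and 0 fragments against 4, 43, 20 and 9 in atrium-like replicates 1 and 3 and ventricle-like replicates 1 and 3, and was the 1 lower gene. With values under 3 counts raised to 3 counts its log2 gap was -0.99, short of 2-fold, and the sides overlapped under the cardiomyocyte scaling. Casq1, the calcium store protein, overlapped at 30.9 and 46.7 CPM against 6.30 to 95.7.

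In the skeletal sarcomere list 10 genes were higher, of 18 that passed the filter (55.6%, beside 2.93% of all genes). Myh3, the embryonic myosin heavy chain, was at 26.8 and 24.3 CPM and at 0, 0.192, 0 and 0.176 in atrium-like replicates 1 and 3 and ventricle-like replicates 1 and 3, a gap of 127. Myh8, the perinatal myosin, was at 11.1 and 4.76 CPM against at most 0.383. Among adult fast myosins, Myh4 was at 1.94 and 1.92 CPM, Myh1 at 0.0989 and 1.82 and Myh2 at 0.033 and 0.0977, and the near-identical sequences of this family can share reads. Tnnc2, fast troponin C, was at 24.2 and 21.0 CPM against at most 0.493, a gap of 42.5. Mylpf, the fast regulatory light chain, was at 33.9 and 32.2 CPM against 1.53 to 3.30. Neb, the ruler protein of the thin filament, was at 14.3 and 16.5 CPM against at most 0.987, and Mybph, a myosin-binding protein, at 15.0 and 14.8 CPM against at most 0.67. Tnnt3, fast troponin T, had a gap of 5.62 and Klhl40, which stabilises thin filament proteins, one of 3.33. Myl1, a light chain also expressed in the embryonic atrium, overlapped at 55.7 and 79.5 CPM against 3.49 to 64.2, and so did Tnni2 and Myoz1.

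Sarcomere genes that heart or slow fibers share showed no such split. Of 20, only Mybpc1, slow myosin-binding protein C, was higher (5%, beside 2.93% of all genes). It was at 8.31 and 3.32 CPM against 0 to 0.768. Acta1, skeletal alpha-actin, was at 338 and 257 CPM and lay within the 178 to 1026 CPM of the Myod1-negative libraries. Actc1, cardiac alpha-actin, was at 715 and 1103 CPM against 171 to 2469. Per length, Myh3 reached 4 and 3.82 FPKM in the Myod1-positive libraries, beside 82.5 and 117 FPKM for Myh6, the alpha myosin of the heart, and 3.52 and 5.46 FPKM for Myh7, the beta myosin of heart and slow fibers. None of 10 muscle metabolism genes that passed the filter was higher or lower. Ckm, muscle creatine kinase, was at 7.12 and 1.73 CPM against 0 to 7.24, and Pygm, muscle glycogen phosphorylase, at 43.5 and 56.9 against 12.1 to 180.

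The cardiomyocyte list did not separate the sides. None of its 16 genes was higher or lower, and its summed level was 2025 and 2438 CPM in the Myod1-positive libraries, within the 753 to 7363 CPM of the others. Tnnt2, cardiac troponin T, was at 136 and 218 CPM against 54.0, 212, 311 and 695 in atrium-like replicates 1 and 3 and ventricle-like replicates 1 and 3. Nkx2-5, a cardiac homeobox factor, was at 6.66 and 13.2 CPM against 5.02 to 62.9. In E11.5H the summed level was 23114 to 27528 CPM, so the defining markers of heart muscle were present in every HO library at lower levels.

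**Figure D2:**
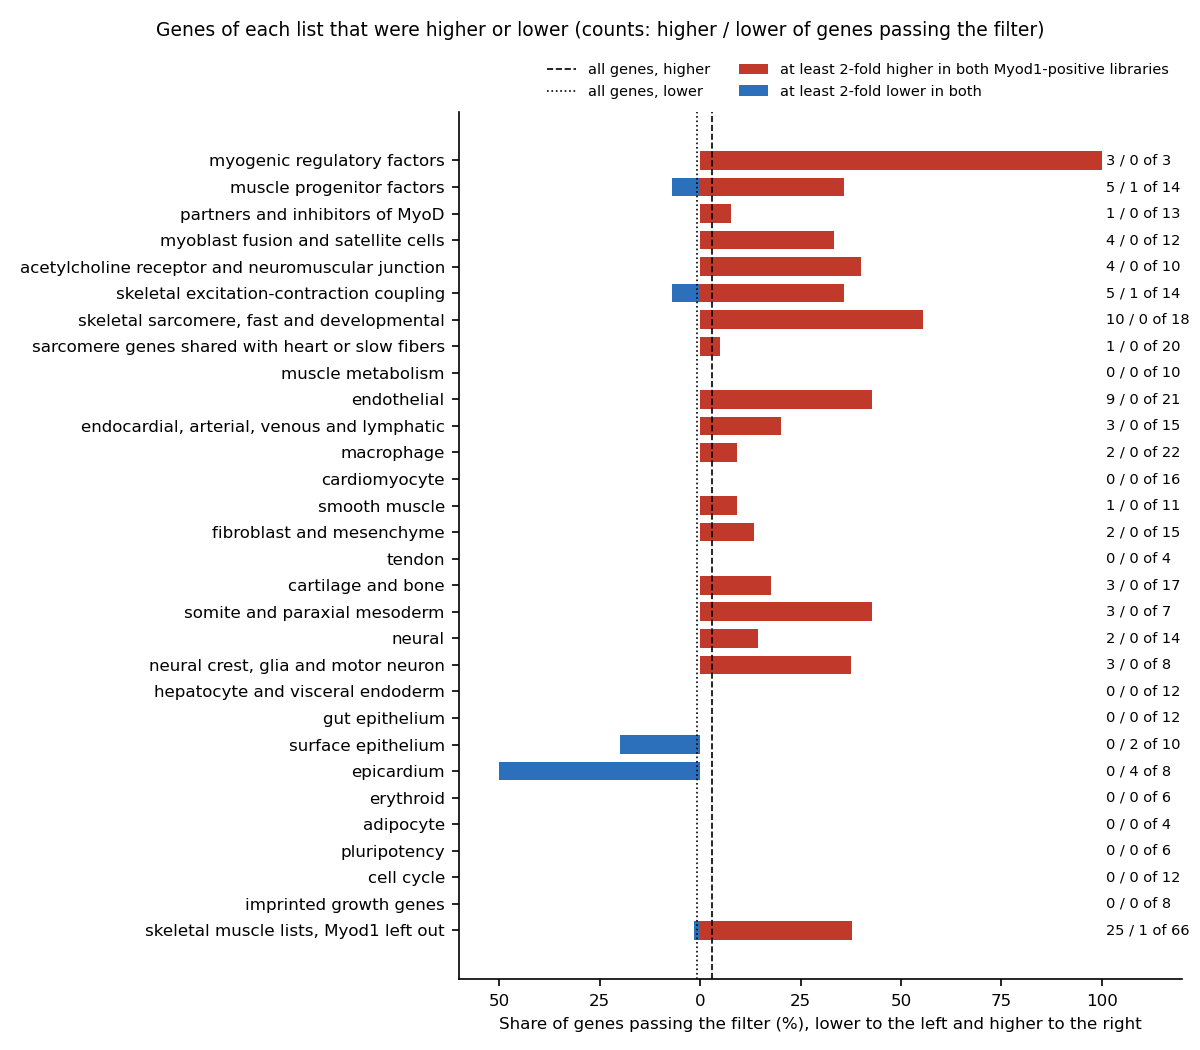
Share of the genes of each list that passed the filter and were at least 2-fold higher (red, to the right) or lower (blue, to the left) in both Myod1-positive libraries. The counts stand at the right, the last row joins the 6 skeletal muscle lists, and the dashed and dotted lines mark 2.93% and 0.848% of all genes. The endothelial list has 9 of 21 genes higher, and the epicardium list has 4 of 8 lower. One of these 4, Lrrn4, falls short of 2-fold with values under 3 counts raised to 3 counts.

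Endothelial genes were higher in both Myod1-positive libraries for 9 of 21 that passed the filter (42.9%, beside 2.93% of all genes). The summed level was 857 CPM in atrium-like replicate 2 and 399 in ventricle-like replicate 2. It was 71.9, 352, 385 and 118 CPM in atrium-like replicates 1 and 3 and ventricle-like replicates 1 and 3, so ventricle-like replicate 2 lay just above ventricle-like replicate 1. The median log2 differences within parts were 2.55 and 1.47 in atrium-like parts and 1.62 and 2.43 in ventricle-like parts. Pecam1, the CD31 antigen of endothelial junctions, was at 46.1 CPM in atrium-like replicate 2 and 21.1 in ventricle-like replicate 2. It was at 2.90, 2.73, 1.70 and 1.30 CPM in atrium-like replicates 1 and 3 and ventricle-like replicates 1 and 3, a gap of 7.26. Tie1, an endothelial receptor kinase, was at 33.0 and 13.4 CPM against 0 to 1.33, and Tek, the angiopoietin receptor, at 32.4 and 10.2 against 0.211 to 2.64. Eng, a TGF-beta co-receptor, was at 107 and 68.3 CPM against 3.15 to 7.53. Plvap, of fenestrated vessels, had a gap of 12.3 and Emcn, a sialomucin of veins and capillaries, one of 10.4. The factors Sox7 and Tal1 had gaps of 6.00 and 4.55, and Mmrn2 of the vessel matrix one of 2.76.

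Not every endothelial gene followed. Kdr and Flt1, the receptors for VEGF, were at 153 and 158 CPM in ventricle-like replicate 1, where Pecam1 was at 1.70. In the Myod1-positive libraries Kdr was at 22.6 and 21.8 and Flt1 at 227 and 86.7. Sox17, a factor of endothelium and of endoderm, was at 122 and 3.81 CPM. Scaled to equal cardiomyocyte expression, 5 endothelial genes were higher, and Pecam1, Tek, Tal1 and Mmrn2 no longer were. Vwf, Gja4 and Nos3, genes of mature and arterial endothelium, were the 3 of 15 higher in the list of vessel types (20%, beside 2.93% of all genes). Their gaps were 2.50, 2.64 and 3.58. Under the same scaling none of these 3 kept a 2-fold gap. Each of the 9 higher endothelial genes reached at least the level of the lower Myod1-positive library in some E11.5H library. For Plvap the E11.5H levels were 211 to 257 CPM, beside 36.9 and 15.8.

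Of 22 macrophage genes 2 were higher (9.09%, beside 2.93% of all genes). C1qa of the complement system was at 82.9 and 57.4 CPM against 2.04 to 19.8. Aif1, the calcium-binding protein Iba1, was at 7.71 and 3.97 against 0.0352 to 1.28. Both overlapped when the libraries were scaled to equal cardiomyocyte expression. Without overlap but under 2-fold were 12 more, among them Adgre1 (F4/80), C1qb, C1qc, Spi1 and Cx3cr1, so 14 of 22 (63.6%) did not overlap, beside 14.2% of all genes. The summed level was 1801 and 1451 CPM in the Myod1-positive libraries and 995, 494, 1221 and 431 CPM in atrium-like replicates 1 and 3 and ventricle-like replicates 1 and 3. Ventricle-like replicate 1 was the nearest library, with Lyz2 at 253 CPM beside 517 and 391, and without it 12 macrophage genes were higher. Without ventricle-like replicate 2 there were 6. Csf1r, the receptor for CSF1, overlapped and was highest in atrium-like replicate 1, at 175 CPM beside 58.0 and 57.8.

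Of 14 neural genes that passed the filter, 2 were higher (14.3%, beside 2.93% of all genes). When no minimum gap was asked for, 8 did not overlap (57.1%, beside 14.2%). Nefm, a neurofilament subunit, was at 99.5 and 135 CPM against 2.22 to 15.8, and Snap25, of synaptic vesicle release, at 12.1 and 39.0 against 0 to 3.34. Tubb3, the neuronal tubulin, was at 83.3 and 256 CPM, but ventricle-like replicate 1 had 80.9. Dcx of migrating neurons was at 6.89 and 111 CPM and Stmn2 of growth cones at 37.1 and 262, with 5.22 and 50.4 in ventricle-like replicate 1. The summed level was 374 and 1457 CPM, against 7.83, 35.2, 260 and 36.0 in atrium-like replicates 1 and 3 and ventricle-like replicates 1 and 3. Ventricle-like replicate 1 was thus closer to atrium-like replicate 2 than the other Myod1-negative libraries were.

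Of 8 genes of neural crest, glia and motor neurons that passed the filter, 3 were higher (37.5%, beside 2.93% of all genes). Sox10, of the neural crest and glia, was at 7.81 and 1.24 CPM against at most 0.417. Foxd3, an early crest factor, was at 1.05 and 0.326 CPM, and overlapped under the cardiomyocyte scaling. Chat and Slc18a3, which make acetylcholine and load it into vesicles, were at 1.02 and 2.41 and at 10.3 and 26 CPM. They were at 0.661 and 7.62 CPM in ventricle-like replicate 1 and at 0 in the other 3. Mnx1, which marks motor neurons, had 1 fragment and 0 in the Myod1-positive libraries. The endothelial, macrophage and neural genes called higher differed together with Myod1 in these libraries, and their part in the differences of the other lists was not tested.

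Among mesenchymal lists a few genes were higher. Postn, a matrix protein, was at 443 and 386 CPM against 54.6 to 98.2, and Pdgfrb, of pericytes and fibroblasts, at 95.9 and 99.2 against 4.65 to 32.8. These were 2 of 15 fibroblast genes (13.3%, beside 2.93% of all genes). The collagens overlapped, with Col1a1 at 3389 and 2218 CPM against 6454 in ventricle-like replicate 1. Of 17 cartilage and bone genes 3 were higher (17.6%), Matn4, Col9a1 and Col9a2 of the cartilage matrix, with gaps of 4.98, 3.22 and 2.39. Sox9, the main cartilage factor, was at 227 and 211 CPM against 39.5 to 168. Of 7 somite genes that passed the filter 3 were higher (42.9%), Ripply1, Foxc1 and Foxc2. Foxc1 and Foxc2, forkhead factors also made in vessels and mesenchyme, were at 25 and 27.2 and at 32.3 and 25.8 CPM. Ripply1, which is specific to forming somites, was at 0.626 and 0.423 CPM, with 1 fragment in the Myod1-negative libraries. Tbx6 and Msgn1, of presomitic mesoderm, were under 0.5 CPM in both. Actg2, enteric smooth muscle actin, was the 1 of 11 smooth muscle genes higher (9.09%), at 158 and 160 CPM against 23.1 to 55.6. None of 4 tendon genes that passed the filter was higher. Under the cardiomyocyte scaling Postn, Pdgfrb, Col9a2, Ripply1, Foxc1, Foxc2 and Actg2 did not keep a 2-fold gap.

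Lower genes were found in the epicardium list, with 4 of 8 (50%), and in the surface epithelium list, with 2 of 10 (20%). The share of all genes was 0.848%. Msln, mesothelin, was at 7.81 and 1.5 CPM against 117, 68.8, 97.3 and 218 in atrium-like replicates 1 and 3 and ventricle-like replicates 1 and 3, a gap of 8.81. The uroplakins Upk1b and Upk3b, of mesothelium and urothelium, had gaps of 3.94 and 3.60. Lrrn4 was at 0 in both, and 3 Myod1-negative libraries had at most 0.576 CPM beside 86.8 in ventricle-like replicate 1, so no fold is given. With values under 3 counts raised to 3 counts its log2 gap was -0.10, short of 2-fold. Wt1 and Tbx18, factors of the epicardium, overlapped. Of 10 surface epithelial genes Perp, a desmosomal protein, and Sfn, an epithelial 14-3-3 protein, were lower, with gaps of 2.56 and 2.22. Scaled to equal cardiomyocyte expression, Perp, Sfn and Upk3b did not keep a 2-fold gap.

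Genes of hepatocytes, visceral endoderm and gut epithelium were at their lowest in ventricle-like replicate 2, and the sides overlapped for most of them. Afp, alpha-fetoprotein, did not overlap but differed by less than 2-fold between the nearest libraries. It was at 183 CPM in atrium-like replicate 2 and 4.17 in ventricle-like replicate 2. In ventricle-like replicate 1 it was at 202 CPM, beside 10992, 3787 and 5664 in atrium-like replicates 1 and 3 and ventricle-like replicate 3. Epcam, an epithelial adhesion protein, was at 246 and 12.4 CPM with 137 in ventricle-like replicate 1. The summed hepatocyte list was at 1014 and 50.5 CPM against 465 to 26291, and the gut list at 3605 and 1039 against 1655 to 23856. No gene of these lists was lower by the 2-fold rule. Ventricle-like replicate 1 thus resembled the Myod1-positive libraries in endoderm, macrophage and neuronal genes, while Myod1 and Chrng were at 0 in it.

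**Figure D3:**
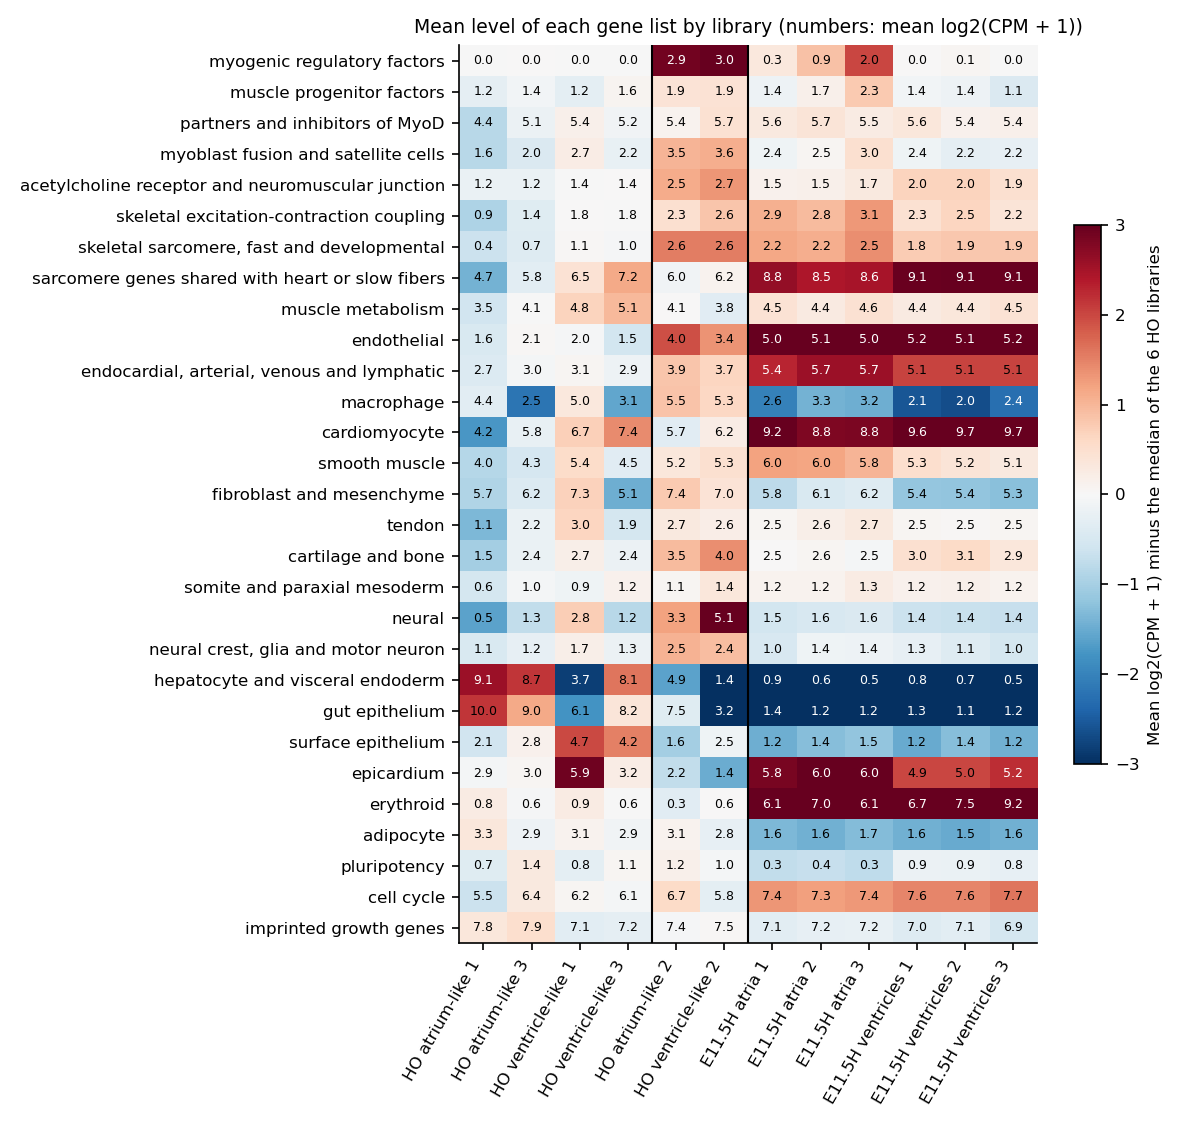
Mean log2(CPM + 1) of the genes of each list (number in each cell) in each library, coloured by the difference from the median of the 6 HO libraries. The Myod1-negative HO libraries stand at the left, the 2 Myod1-positive libraries between the black lines and E11.5H at the right. Myogenic regulatory factors and neural genes are highest in the middle columns, and hepatocyte and gut genes are lowest there and in HO ventricle-like 1 among HO libraries.

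Other lists did not follow Myod1. None of the erythroid, adipocyte, pluripotency, cell cycle and imprinted genes was higher or lower by the 2-fold rule. Proliferation genes differed within the pair instead, with Mki67 at 83.6 CPM in atrium-like and 25.7 in ventricle-like replicate 2. Cdkn1a, the cell cycle inhibitor p21, was lower without overlap, at 528 and 522 CPM against 691 to 1249.

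Outside the lists, the 20 higher genes with the largest gaps and at least 5 CPM in both Myod1-positive libraries included genes known from glia, endothelium and bone. Gfap, the intermediate filament of astrocytes and some Schwann cells, was at 5.60 and 5.57 CPM, with at most 2 fragments in a Myod1-negative library. Gldn, gliomedin of peripheral nerve nodes, was at 10.9 and 24.2 CPM against at most 0.599. Sele, E-selectin of activated endothelium, was at 46.7 and 60.3 CPM against 0.0384 to 2.54, and Icam2 and Clec14a, also endothelial, each had a gap of 13.2. Mmp9 and Ctsk, proteases abundant in osteoclasts, were at 104 and 162 and at 43.2 and 37.6 CPM, with gaps of 9.18 and 7.53. Col19a1, a collagen made in differentiating muscle, was at 9 and 8.37 CPM against at most 0.499. The 20 lower genes included several known from epithelia. Krt7, a keratin of simple epithelia, was at 25.5 and 54.2 CPM against 190 to 371, and Grhl3, an epithelial factor, at 3.82 and 3.06 against 14.0 to 33.5. Scel, Ppl and Cldn23, of the cornified envelope and tight junctions, had gaps of 6.75, 3.77 and 4.40. Under the cardiomyocyte scaling Grhl3 and Cldn23 did not keep a 2-fold gap.

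The 2 Myod1-positive libraries were also compared with each other. The median log2 difference of ventricle-like minus atrium-like replicate 2 was 0.17 over the skeletal muscle lists, against -0.03 over all genes. It was -0.14 for macrophage genes, -0.61 for endothelial genes and 1.72 for neural genes. For the hepatocyte and gut lists it was -3.18 and -4.31. Among the 26 higher skeletal muscle genes, Cacna1s and Myh8 departed most toward the atrium-like part, by -1.77 and -1.08. Fbp2, a muscle gluconeogenic enzyme that was not higher, differed by -5.05. For Myod1 itself the difference was 0.82.

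**Figure D4:**
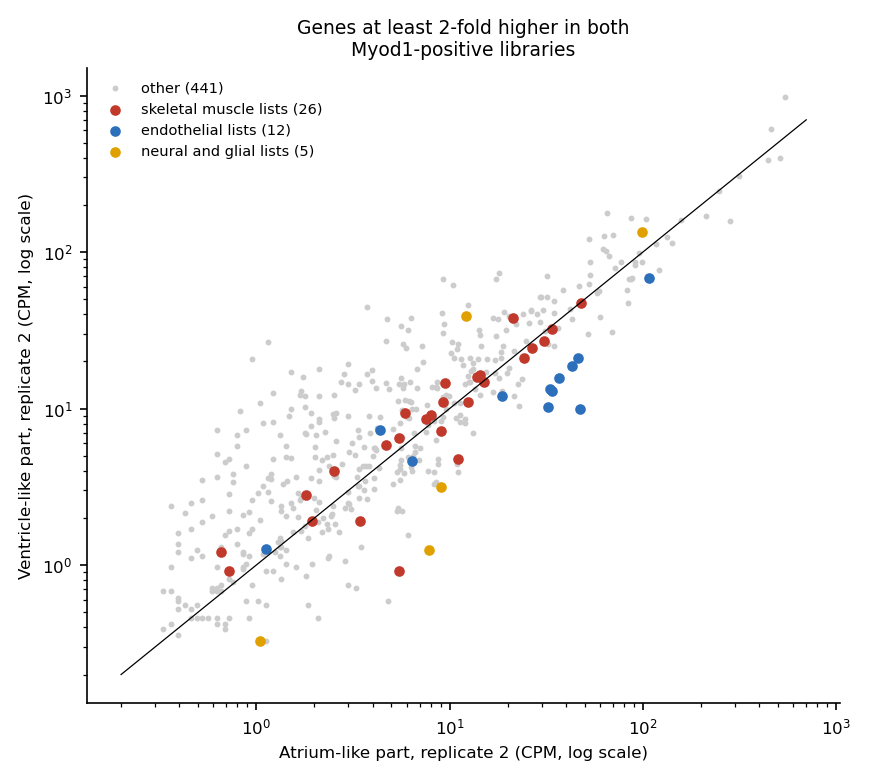
CPM of the 484 genes that were at least 2-fold higher in both Myod1-positive libraries, in the atrium-like part (x axis) and the ventricle-like part (y axis) of replicate 2, on log axes with the line of equal values. Each point is 1 gene. The 26 genes of the skeletal muscle lists, Myod1 included, lie near the line apart from genes such as Cacna1s (5.5 and 0.912 CPM), and most of the 12 endothelial genes lie below it, such as Pecam1 at 46.1 and 21.1 CPM.

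The labelled parts offer a test whose groups were not set by the Myod1 rule. Each part holds 1 Myod1-positive and 2 Myod1-negative libraries. With edgeR's quasi-likelihood test, 0 of 16516 genes (0%) differed between atrium-like and ventricle-like parts when an adjusted p below 0.05 and at least a 2-fold difference were asked for. At an unadjusted p under 0.05 there were 950 genes, and DESeq2 called 56 and limma-voom 0. Scaled to equal cardiomyocyte expression, edgeR called 884 genes, all of them higher in atrium-like parts. This scaling itself moved the median log2 level of all genes by 1.67, 0.34 and 0.23 in atrium-like replicates 1, 2 and 3. In ventricle-like replicates 1, 2 and 3 it moved the median by -0.67, -0.19 and -1.3. The 884 genes cannot be told apart from that shift between the parts. For Myod1 the log2 difference of atrium-like minus ventricle-like parts was -0.90 with a standard error of 3.14. For Myog it was -0.03 with a standard error of 3.08. The test used all HO libraries, whatever their Myod1 count. In each part both genes were high in the 1 Myod1-positive library and at or near 0 in the other 2, so the spread within a part was wide. The test could therefore not show a difference for Myod1 or Myog, and no p-value is given for them.

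The E11.5H libraries were not used by the rule, and some of the same genes were present in them. Myod1 had 4, 51 and 206 fragments in atria replicates 1, 2 and 3 (0.129, 1.65 and 7.10 CPM) and 0 in all 3 ventricles. Myog was at 1.10, 2.11 and 13.2 CPM in the atria and at 0.0724, 0.217 and 0 in the ventricles. In this comparison of chambers, which was chosen after the values were seen, both passed the test in the atria, with an edgeR adjusted p of 0.0219 for Myod1 and of 0.00963 for Myog. For Myog the log2 difference of atria minus ventricles was 5.73 with a standard error of 1.16. Neither call held with every choice of library left out. Without atria replicate 3 Myog had an edgeR adjusted p of 0.0759. Without atria replicate 2 or 3 Myod1 did not pass the filter, so it was not tested there. Without ventricles replicate 1 or 2 the edgeR adjusted p of Myod1 was 0.0548 or 0.063. Its log2 difference of atria minus ventricles was 9.41 in both cases, beside 9.40 with all libraries.

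Atria replicate 3 stood out for other early muscle genes. Pax3 was at 0, 0.519 and 3.52 CPM in atria replicates 1, 2 and 3, Cdh15 at 0, 0.649 and 4.45, Myh3 at 0, 0 and 6.65, and Mymk at 0, 0 and 1.45. In the ventricles Pax3 was at 0 in all 3 libraries, and none of the 4 genes passed the test between the chambers. Myf5 was at 0, 0.259 and 0.897 CPM in the atria and at 0 in the ventricles. The Y-linked Ddx3y was at 62.5 and 54.5 CPM in replicate 3 of atria and ventricles and at most 0.0362 in the other E11.5H libraries, so the same-numbered chambers of replicate 3 shared this pattern. It was at 31 to 75 CPM in all 6 HO libraries.

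Over the skeletal muscle lists, 11 of 60 genes tested were higher in atria than in ventricles of E11.5H and 5 were lower, beside 2.81% and 1.87% of all 15177 genes. Without atria replicate 3 it was 7. Myl1 was at 837 to 1108 CPM in atria and 264 to 287 in ventricles (log2 difference 1.86 with a standard error of 0.10, edgeR adjusted p = 2.26e-06). Casq1, Tnnt3 and Atp2a1 were also higher in atria (edgeR adjusted p of 4.09e-06, 6.75e-06 and 0.000128), and Ache, acetylcholinesterase, was lower (log2 difference -2.54, edgeR adjusted p = 0.00056). Of the 25 skeletal muscle genes higher in the Myod1-positive HO libraries, 5 reached at least the level of the lower of these libraries in some E11.5H library. Chrnd, Musk and Cacng1 were at 0 in all 6 E11.5H libraries, and Chrna1 was at most 0.207 CPM there. Over all 484 higher genes, 157 reached that level.

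Some of the genes named overlap another gene on the opposite strand in the table, among them Atp2a1, Mybph, Tnnt3, Neb, Eng, Plvap, Matn4 and Nefm. The use of strand in counting is not given in the sources used here, so reads of the overlapping stretches cannot be told apart.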

How the data were processed

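RNA-seq of 12 libraries was compared, in 4 groups of 3 replicates. Per the labels the RNA was taken from dissected parts with an AllPrep kit, and STAR with the mm10 build is named in the submitters' processing notes (versions, counting tool and strand are not given in the sources used here). The authors deposited a table of expected counts, the estimated number of fragments of each gene with no scaling, beside FPKM scaled for length and depth. Of the deposited counts 23.8% were not whole, and they were rounded. The skeletal muscle lists, the other lists and the rule were chosen with earlier results of these data known. The genes named in the text are all myogenic regulatory factors, those of each list with the largest gaps, the highest levels or the clearest departures, and outside the lists the first 20 in each direction with at least 5 CPM on the higher side. Fits used edgeR 4.0.16, DESeq2 1.42.0 and limma 3.58.1 in R 4.3.3, with TMM scaling, a count of at least 10 in at least 2 libraries and Benjamini-Hochberg adjustment, and were tested on simulated data. Medians of log2 differences used a pseudocount of 1 CPM. The chamber comparison of E11.5H was added after the data were seen. Alternatives changed the scaling, filter, gap size, test, block and libraries. Replicates are biological by the methods, with no donor named, so p-values measure the spread between these samples. Some genes of the lists are counted but not reported here by name.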

Additional observations from a re-analysis of the deposited data

Results flagged for a closer look

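Myod1 fragments were present in E11.5H libraries, which the comparison of HO libraries does not use. The counts were 4, 51 and 206 in atria replicates 1, 2 and 3, each above the 3 counts that a count of 0 allows, and 0 in the ventricles of all 3 replicates. What the atrial samples held besides heart tissue was not tested.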

How the results depend on the processing

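The counts of higher and lower genes, 484 and 140, became 2350 and 1701 with any gap and 177 and 47 at a gap of at least 4-fold, and values under 3 counts raised to 3 counts, an alternative chosen after seeing the data, gave 484 and 123. Leaving out each HO library gave 564 to 1378 higher and 161 to 937 lower genes, 25 to 32 skeletal muscle genes, 9 to 12 endothelial genes and 2 to 12 macrophage genes. These counts could only stay or rise when a library was left out, because the filter and scaling were kept. Macrophage genes numbered 14 with any gap and 0 at 4-fold. Scaling to equal cardiomyocyte expression moved the median of all genes by 1.67 in atrium-like replicate 1 and by -1.3 in ventricle-like replicate 3 on the log2 scale. It raised the median in every atrium-like library and lowered it in every ventricle-like library. It gave 70 lower genes, 5 endothelial genes and 1 macrophage gene, and 39 of the 109 named genes no longer had a 2-fold gap. No named gene changed direction under any of the 4 ways of scaling tried, this one included. A change of direction would have needed full separation the other way. Genes whose sides came to overlap, such as Meox2 and C1qa under this scaling, were not counted as changed. For atrium-like against ventricle-like parts the cardiomyocyte scaling gave 884 genes, DESeq2 gave 56, leaving out each library gave 0 to 0, and the other alternatives gave 0. With the replicate block that count was 0, with 1475 genes at an unadjusted p under 0.05. The same-numbered HO libraries deviated together by correlations of -0.069, 0.62 and 0.405 for replicates 1, 2 and 3, and not every library correlated best with its own number, so the numbers were not taken to pair the samples. In E11.5H the skeletal muscle genes higher in atria numbered 11, 11 with the replicate block, 17 with DESeq2 and 7 to 13 with each library left out. The cause of these shifts was not tested. Genes under 0.148 CPM could not be told from 0, and a minimum count of 50 in place of 10 left 339 higher and 98 lower genes.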
